A study of Rattus norvegicus with 16 samples.

Results

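Major histocompatibility complex (MHC) class I molecules carry peptides from inside a cell to its surface, where T cells read them. The immunoproteasome cuts the peptides, the TAP transporter moves them into the endoplasmic reticulum, and the class I heavy chain binds them there together with beta-2-microglobulin. Interferons raise most of these genes, partly through the transcription factor Irf1, and in healthy brain neurons and glia carry little class I protein. The genes described here are 8 such genes, chosen by name: the interferon-response genes Irf1 and Ifitm3, the proteasome activator subunit Psme1, the immunoproteasome subunits Psmb8 and Psmb9, the transporter subunits Tap1 and Tap2, and B2m (beta-2-microglobulin). They are 8 of the 4358 genes to which the platform annotation gives a probe set of their own, and every probe set carrying 1 of these symbols alone was taken, 12 in all, with Psme1, Psmb9, Tap1 and Irf1 on 2 each.

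Expression was measured in rat pontine nuclei, the relay of the brainstem that projects to the cerebellum, after the projecting axons had been injured far from their cell bodies. These axons had been cut (transection) or had received lysolecithin, a lipid used to remove myelin, or saline. The groups were the lesion side after transection, after lysolecithin and after saline, with 3 arrays each (days 4, 10 and 37), the contralateral side after transection, after lysolecithin and after saline, with 2 arrays each (days 10 and 37), and 1 healthy control. Strain, sex, age and the number of animals behind an array are not given in the sources used here, and the contralateral nuclei served as the study's controls. Since no condition had a second array, its 3 or 2 days served as the replicates of an intervention, nothing says that the arrays came from separate animals, and every SE and p-value measures only the spread between these arrays, which includes differences between conditions. The number of arrays limits the precision.

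Signals are linear MAS5 values, which can be compared between arrays for 1 probe set but not between probe sets. The authors had scaled them so that the mean over the bulk of probe sets, leaving out 2% at each end, was 801 on every array. Between 39.9% and 47.1% of probe sets were called Present by the MAS5 detection call. The healthy array had the lowest share and correlated least with the others (r = 0.914 to 0.950 across probe sets, against 0.953 to 0.988 among the rest). It entered none of the tests, but it is part of the ranges and correlations over 16 arrays, which are also given without it. RNA quality was followed by the ratio of the 3′ to the 5′ probe set of beta-actin, which was 1.08 to 1.43 on transection and 1.20 to 1.44 on lysolecithin lesion arrays, against 1.41 to 1.69 on saline lesion arrays. On the contralateral side it was 1.07 to 1.53 after transection and 1.16 to 1.17 after lysolecithin, against 1.27 to 1.35 after saline. The injuries thus tended to lower values than saline, with an overlap on the lesion side, and the contralateral transection arrays lay on either side of saline. The same ratio of GAPDH was 1.07 to 1.18 on transection and 1.02 to 1.16 on lysolecithin lesion arrays, against 1.09 to 1.16 on saline lesion arrays, and on the contralateral side 1.06 to 1.23 after transection and 1.15 to 1.21 after lysolecithin, against 1.16 to 1.21 after saline. The part of RNA quality in the results was not tested.

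Of the 6 member probe sets that could be tested, 1 rose after lysolecithin, that of Ifitm3, which was 1.77-fold higher than after saline over both sides (28 of all 4413 probe sets tested, 0.634%, passed in that comparison). No member passed the threshold after transection, between the sides, or between days, comparisons in which 0 to 32 of the 4413 passed (0% to 0.725%). Psme1 showed differences from saline of similar size after both injuries over both sides, but neither of its probe sets passed. They were 1.93-fold after transection and 1.79-fold after lysolecithin for D45249_at, and 1.28-fold and 1.26-fold for D45249_g_at. B2m differed little. Psmb8 and Tap1 were called Absent on all 16 arrays, and Tap2 was called Present on 1, so these 3 genes could be described only at the level of background.

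**Figure D1:**
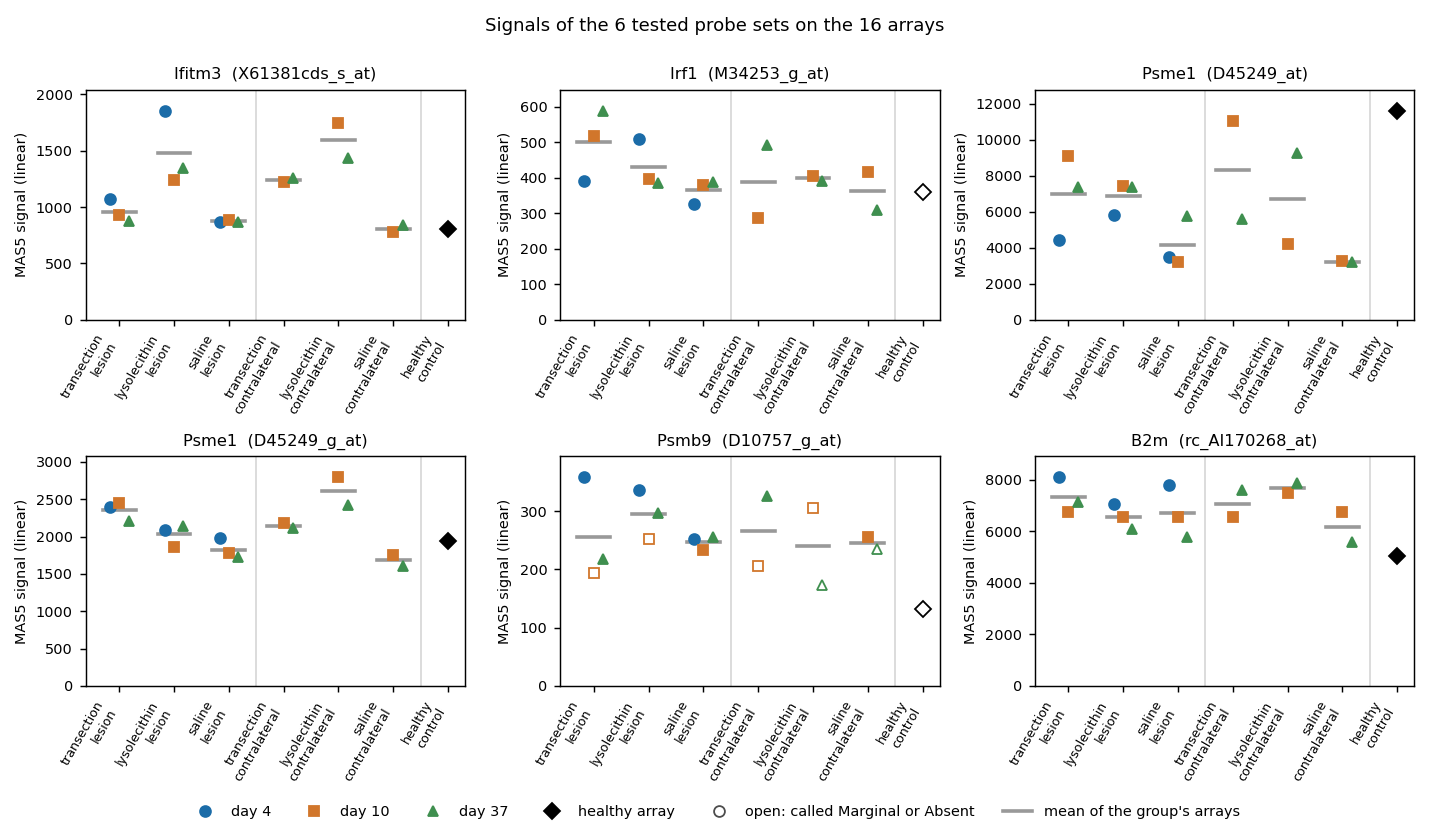
Each panel shows the linear MAS5 signal of 1 tested probe set on the 16 arrays, with groups along the horizontal axis, circles for day 4, squares for day 10, triangles for day 37 and a diamond for the healthy array. Open symbols mark a Marginal or Absent call, and the grey bar is the mean of the group's arrays. The 5 lysolecithin arrays of Ifitm3 lie at 1243.5 to 1855.1, above the 5 saline arrays at 779.2 to 884.7.

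Ifitm3 encodes a small membrane protein that is induced by interferon and hinders viruses as they enter cells. Its probe set X61381cds_s_at was called Present on all 16 arrays, and its suffix marks probes that match more than 1 transcript, so signal from close relatives in the Ifitm family cannot be set apart. On the lesion side its signal was 1855.1, 1243.5 and 1343.7 on days 4, 10 and 37 after lysolecithin, against 867.3, 884.7 and 870.7 after saline. Contralateral arrays read 1745.1 and 1437.0 on days 10 and 37 after lysolecithin, against 779.2 and 837.5 after saline. All 5 lysolecithin arrays were therefore above all 5 saline arrays, as were those of 1.97% of the 4413 probe sets tested. The saline arrays lay close to the healthy array at 801.4. On both sides together the signal averaged 1525 ± 263 after lysolecithin and 848 ± 42.1 after saline (SD, n = 5 each). Both sides of a day may come from the same animals. The fit over both sides treated them as nearly independent (estimated correlation 0.0871), and its p-value rests on that. The log2 difference was 0.82 (SE 0.12; limma adjusted p = 0.00425), and in this comparison 28 of the 4413 probe sets tested, 0.634%, passed the threshold of 0.05 in either direction. The array does not count cells: in bulk tissue a change in the number of cells of a type and a change in RNA per cell cannot be told apart, here or in any result below.

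The same gene was described on each side by itself. On the lesion side lysolecithin exceeded saline on 3 of 3 days, by 1.40-fold to 2.12-fold, and the fitted log2 difference was 0.73 (SE 0.14; limma adjusted p = 0.0707). In that comparison 7 probe sets, 0.159%, passed. The contralateral ratio was 2.21 and 1.70 on days 10 and 37 (log2 difference 0.96, SE 0.22; limma adjusted p = 0.27), where 1 probe set, 0.0227%, passed. Neither side alone put Ifitm3 past the threshold. Every lysolecithin array was above every saline array on each side, as for 11.4% (lesion) and 15.8% (contralateral) of the 4413 probe sets tested. With 1 array left out, the call was made in 1 of 9 refits on the lesion side (0.59 to 0.84; limma adjusted p = 0.0404 to 0.497). That was the refit without the saline array of day 37, at 0.78 (limma adjusted p = 0.0404). On the contralateral side the difference ran from 0.78 to 1.13, and was 1.07 without the saline array of day 37. Each contralateral refit leaves a group with 1 array, so only sizes are given there.

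After transection Ifitm3 stood near saline on the lesion side and above it on the contralateral side. Its signal was 1068.1, 927.2 and 877.3 on days 4, 10 and 37 on the transection lesion side, 1.01-fold to 1.23-fold the saline signal of the same day, and the groups overlapped. Its contralateral signal was 1223.5 and 1253.6 on days 10 and 37, 1.49-fold to 1.56-fold the saline signal, with no overlap. Such a separation held for 14.5% of the 4413 probe sets tested. The log2 difference from saline was 0.12 (SE 0.14; limma adjusted p = 0.679) on the lesion side, where 32 probe sets, 0.725%, passed. It was 0.61 (SE 0.22; limma adjusted p = 0.999) on the contralateral side, where 0 passed (0%) and 139 had an unadjusted p under 0.05. With both sides together it was 0.32 (SE 0.12; limma adjusted p = 0.257), and 17 probe sets, 0.385%, passed. The lesion array was below its contralateral partner in both transection pairs (ratios 0.704 and 0.761) and both lysolecithin pairs (0.715 and 0.936), and above it in both saline pairs (1.04 and 1.13). The test of this side difference, transection minus saline, gave -0.57 (SE 0.25; limma adjusted p = 0.997), and that of lysolecithin minus saline gave -0.41 (SE 0.25; limma adjusted p close to 1). In these 2 comparisons 0 probe sets passed (0%), with 144 and 135 at an unadjusted p under 0.05. Transection against lysolecithin on the lesion side gave -0.60 on the log2 scale (SE 0.14; limma adjusted p = 0.121), while 21 probe sets, 0.476%, passed. Every transection array was below every lysolecithin array there. The share of all probe sets separated in this way was not counted.

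The promoter of Ifitm3 is printed because this gene carried the call. It runs from 250 to 1 bases before the transcription start on the minus strand of the GRCr8 assembly, chr1:205541759-205542008, and is taken from RefSeq. The capitals mark an interferon-stimulated response element (ISRE) core (GAAA, any 2 bases, GAAA) from 44 to 35 bases before the start and an interferon-gamma-activated site (GAS; TTC, any 3 bases, GAA) from 33 to 25 bases before it.
Ifitm3 promoter: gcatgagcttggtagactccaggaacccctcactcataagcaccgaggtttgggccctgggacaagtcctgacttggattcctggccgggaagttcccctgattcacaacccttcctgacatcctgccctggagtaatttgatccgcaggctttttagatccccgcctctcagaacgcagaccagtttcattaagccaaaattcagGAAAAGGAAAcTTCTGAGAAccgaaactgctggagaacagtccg
Both motifs were looked for on both strands in windows from 250 bases before to 50 bases after the start. GAS is its own reverse complement, and the 2 motifs do not overlap in this promoter. The ISRE core was in 1034 of 27457 RefSeq windows (3.77%) and GAS in 2382 (8.68%). Ifitm3 held both. A match to these letters is a description and not evidence of binding.

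Irf1, the transcription factor that takes interferon signals to class I genes, was measured by M34253_g_at, called Present on 15 arrays and Marginal on the healthy one. Its signal on the lesion side was 392.0, 518.6 and 588.9 on days 4, 10 and 37 after transection and 509.1, 397.5 and 385.3 after lysolecithin, against 325.5, 379.3 and 389.4 after saline. All 3 transection arrays were above all 3 saline arrays, by 1.19-fold to 1.49-fold on the same day. The lowest of them, 392.0, was only just above the highest saline array, 389.4. Such a separation held for 7.93% of the 4413 probe sets tested. Lysolecithin was above saline on 2 of 3 days and its arrays overlapped those of saline. The log2 difference from saline on the lesion side was 0.42 (SE 0.18; limma adjusted p = 0.266) after transection and 0.22 (SE 0.18; limma adjusted p = 0.504) after lysolecithin, neither past the threshold. The contralateral Irf1 signal was 287.3 and 491.2 on days 10 and 37 after transection and 406.3 and 390.3 after lysolecithin, against 415.3 and 309.7 after saline. The transection arrays there were both the lowest and the highest of the 6, so no order of groups could be read. With both sides together the mean was 456 ± 118 after transection and 418 ± 51.7 after lysolecithin, against 364 ± 44.6 after saline (SD, n = 5 each), with limma adjusted p = 0.459 and 0.596. The second Irf1 probe set, M34253_at, was called Absent on all 16 arrays (signals 23.5 to 149.2).

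The proteasome activator PA28 opens the proteasome core and is built from the products of Psme1 and Psme2. Psme1 had the widest range of the tested members, by 1 of its 2 probe sets. That was D45249_at, Present on all 16 arrays, which ran from 3185.5 to 11614, 3.65-fold, and to 11038, 3.47-fold, without the healthy array. Lesion-side arrays read 4414.9, 9087.8 and 7397.3 on days 4, 10 and 37 after transection and 5836.0, 7425.0 and 7373.8 after lysolecithin, against 3457.2, 3190.7 and 5764.0 after saline. The contralateral arrays read 11038.0 and 5590.6 on days 10 and 37 after transection and 4182.4 and 9277.4 after lysolecithin, against 3256.1 and 3185.5 after saline. Both injuries exceeded saline on each matched day and side, but 2 transection arrays (day 4 on the lesion side, day 37 on the contralateral side) and 1 lysolecithin array (day 10, contralateral side) were below the highest saline array. The healthy array held the highest signal of all, 11614, and the saline mean was farther from it than the mean of either injury.

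On both sides together D45249_at averaged 7506 ± 2656 after transection and 6819 ± 1913 after lysolecithin, against 3771 ± 1120 after saline (SD, n = 5 each). The log2 difference from saline was 0.95 (SE 0.23; 1.93-fold; limma adjusted p = 0.0946) after transection and 0.84 (SE 0.23; 1.79-fold; limma adjusted p = 0.159) after lysolecithin, so neither passed. The deposited series value table, a second set of values from the same arrays, gave 1.06 (limma adjusted p = 0.0307) for transection, which did pass. On the lesion side the differences were 0.74 (SE 0.19; limma adjusted p = 0.105) and 0.77 (SE 0.19; limma adjusted p = 0.104), and on the contralateral side 1.28 (SE 0.38; 2.43-fold) and 0.95 (SE 0.38; 1.93-fold), after transection and after lysolecithin in each case and both with limma adjusted p = 0.999 on the contralateral side. The contralateral result after transection depended on single arrays. With 1 array left out it ran from 0.51 to 2.05. It was 1.34 without the saline array of day 10 and 1.22 without that of day 37. Without the transection array of day 37 it was 2.05. Each of these refits leaves a group with 1 array, so only the size is given. On the lesion side the lysolecithin difference passed in 1 of 9 refits (0.47 to 0.97; limma adjusted p = 0.0366 to 0.497), that without the saline array of day 37, at 0.97 (limma adjusted p = 0.0366). By size of the fitted difference on both sides, Psme1 ranked 27 for transection and 25 for lysolecithin among the 4413 probe sets, and Ifitm3 ranked 28 for lysolecithin and 368 for transection.

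The second Psme1 probe set, D45249_g_at, was also Present on all 16 arrays and ranged 1.74-fold. The MAS5 detection p was 0.00486 to 0.0279 for D45249_at, the more weakly detected, and 0.000219 to 0.000266 for D45249_g_at. D45249_g_at followed the first only loosely (r = 0.359 over 16 arrays that share their scaling, and 0.447 without the healthy array). Its lesion-side signals were 2399.6, 2452.1 and 2209.0 on days 4, 10 and 37 after transection and 2091.0, 1864.0 and 2145.8 after lysolecithin, against 1977.8, 1774.6 and 1725.7 after saline. The contralateral signals were 2179.6 and 2115.9 on days 10 and 37 after transection and 2797.0 and 2424.9 after lysolecithin, against 1752.0 and 1612.0 after saline. All 5 transection arrays were above all 5 saline arrays, while lysolecithin overlapped saline on the lesion side and stood above it on the contralateral side. Such separations held for 1.77% (transection, both sides) and 15.8% (lysolecithin, contralateral side) of the 4413 probe sets tested. On both sides together the log2 difference was 0.36 (SE 0.12; 1.28-fold; limma adjusted p = 0.192) after transection and 0.34 (SE 0.12; 1.26-fold; limma adjusted p = 0.249) after lysolecithin. The 2 probe sets thus gave the same direction, with sizes of 1.28-fold and 1.93-fold after transection, and neither passed. Psme2, the partner subunit, read by probes matching more than 1 transcript, differed from saline by 0.10 (SE 0.16; limma adjusted p = 0.81) after transection and 0.08 (SE 0.16; limma adjusted p = 0.836) after lysolecithin.

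The promoter of Psme1, the member with the widest range, is printed beside that of Ifitm3. It runs from 250 to 1 bases before the start on the plus strand, chr15:33038721-33038970 (GRCr8, RefSeq), and is all in lower case because neither motif was found in its window, which says only that these letters are not there.
Psme1 promoter: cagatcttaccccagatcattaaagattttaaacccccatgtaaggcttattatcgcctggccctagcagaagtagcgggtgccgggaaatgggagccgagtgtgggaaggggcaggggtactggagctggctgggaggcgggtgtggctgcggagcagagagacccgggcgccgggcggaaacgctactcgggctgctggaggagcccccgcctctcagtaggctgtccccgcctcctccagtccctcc

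**Figure D2:**
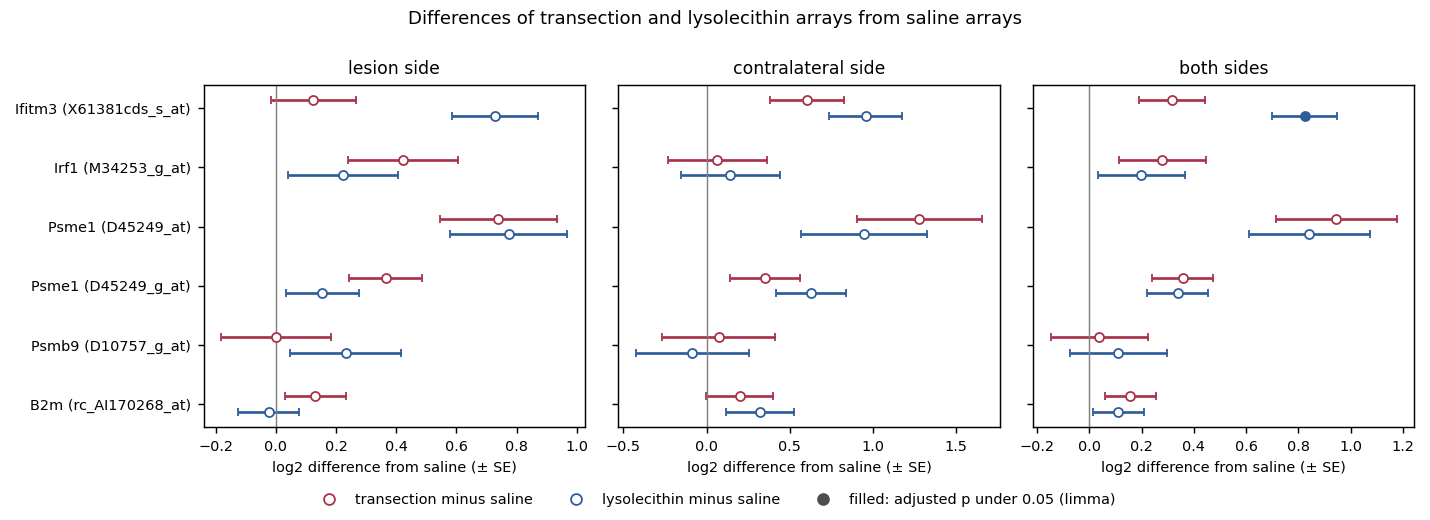
Fitted log2 differences from saline (horizontal axis, bars ± SE) of the 6 tested probe sets on the lesion side, the contralateral side and both sides, red for transection and blue for lysolecithin. A filled point has a limma adjusted p under 0.05, and the only filled point is Ifitm3 after lysolecithin on both sides, at 0.82.

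Psmb9 and Psmb8 are catalytic subunits that replace their constitutive counterparts when the immunoproteasome is made. Psmb9 was read by D10757_g_at, called Present on 9 arrays, Marginal on 2 and Absent on 5. Its lesion-side signal was 358.7, 193.5 and 217.5 on days 4, 10 and 37 after transection and 336.5, 253.2 and 296.3 after lysolecithin, against 253.1, 233.5 and 256.4 after saline. The day 4 arrays of both injuries were the highest of the 16, and those of day 10 were Marginal. Contralaterally it read 206.0 and 325.8 on days 10 and 37 after transection and 305.9 and 173.3 after lysolecithin, against 256.6 and 235.6 after saline, and 4 of these 6 were Absent. The log2 difference from saline on both sides was 0.04 (SE 0.19; limma adjusted p = 0.946) after transection and 0.11 (SE 0.19; limma adjusted p = 0.813) after lysolecithin, well inside the spread. The healthy array, at 132.9 and Absent, was the lowest. The second probe set, D10757_at, was Absent on all 16 arrays, at 15.3 to 133.3.

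**Figure D3:**
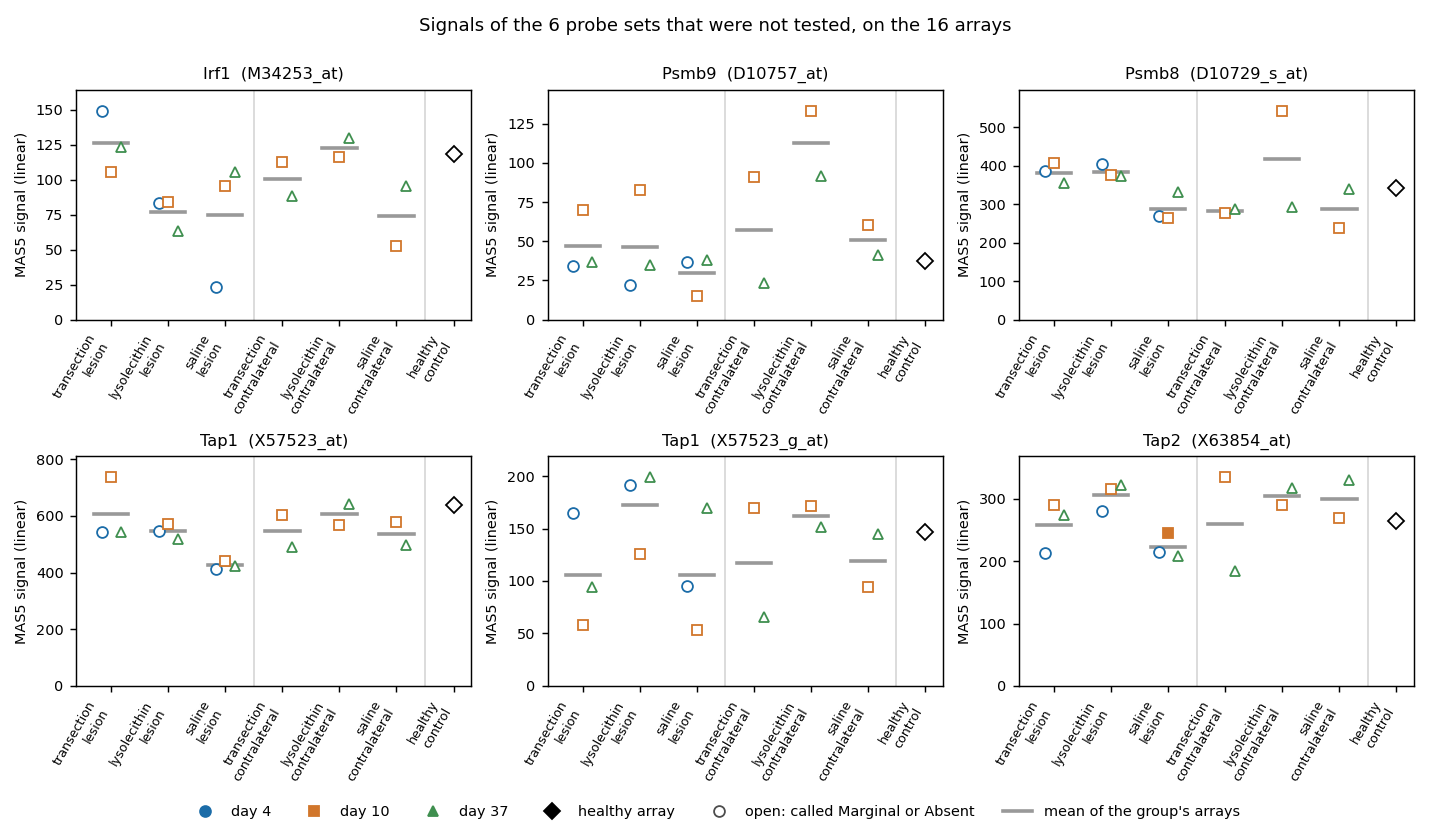
Linear MAS5 signals of the 6 member probe sets that were not tested, drawn as for the tested ones, with an open symbol for a Marginal or Absent call. A single symbol is filled, Tap2 on the saline lesion array of day 10, at 245.7.

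Psmb8 (D10729_s_at), whose probes match more than 1 transcript, was Absent on all 16 arrays. It read 384.8, 405.5 and 356.0 on days 4, 10 and 37 after transection and 405.0, 374.4 and 373.4 after lysolecithin on the lesion side, against 268.5, 263.6 and 330.8 after saline. On that side every array of both injuries lay above every saline array. Among the 4413 probe sets tested this held for 7.93% after transection and 11.4% after lysolecithin. The share among probe sets called Absent was not counted. An Absent call means that the perfectly matched probes did not stand above the mismatched ones, so no fold is given. The contralateral Psmb8 signal was 276.8 and 286.5 on days 10 and 37 after transection and 542.5 and 292.1 after lysolecithin, against 237.3 and 339.3 after saline, and the groups overlapped.

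Tap1 and Tap2 form the peptide transporter. Tap1 (X57523_at), Absent on all 16 arrays, read 543.1, 737.1 and 543.9 on days 4, 10 and 37 after transection and 548.3, 572.4 and 520.1 after lysolecithin on the lesion side, against 414.2, 441.3 and 425.0 after saline. Every injury array lay above every saline array on that side, which held for 7.93% (transection) and 11.4% (lysolecithin) of the probe sets tested. The 6 contralateral arrays overlapped at 491.7 to 643.3, and the healthy array, at 637.3, was above all saline arrays. The other Tap1 probe set (X57523_g_at), also Absent throughout, read 53.0 to 199.0 with overlapping groups on the lesion side. Tap2 (X63854_at) was Present on 1 array and Marginal on 1, both of them saline arrays, and ran from 184.1 to 335.0. Tap2 on the lesion side read 212.6, 289.7 and 273.5 after transection and 281.3, 316.4 and 322.7 after lysolecithin, against 214.6, 245.7 and 209.0 after saline, on days 4, 10 and 37, with no overlap between lysolecithin and saline. The 11.4% given above is the background for this separation of Tap2 too. When all probe sets were tested with no filter on detection, none of the 6 probe sets left out of the main tests passed in any comparison. The lowest limma adjusted p against saline was 0.262, for Tap1 X57523_at after transection on the lesion side.

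B2m, the small subunit that every classical class I molecule needs to reach the cell surface, was read by rc_AI170268_at, Present on all 16 arrays. The lesion-side signal was 8111.4, 6752.2 and 7141.4 on days 4, 10 and 37 after transection and 7081.5, 6579.6 and 6076.8 after lysolecithin, against 7815.0, 6564.2 and 5796.7 after saline. The contralateral B2m signal was 6544.7 and 7605.7 on days 10 and 37 after transection and 7488.8 and 7897.4 after lysolecithin, against 6766.2 and 5575.0 after saline. The groups overlapped except for lysolecithin above saline on the contralateral side, a separation that held for 15.8% of the 4413 probe sets tested. The healthy array was lowest at 5044.0. B2m varied least of the tested members, 1.61-fold from lowest to highest array and 1.45-fold without the healthy array. Its log2 difference from saline on both sides was 0.16 (SE 0.10; limma adjusted p = 0.482) after transection and 0.11 (SE 0.10; limma adjusted p = 0.615) after lysolecithin.

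Motif matches were also found in the windows of 5 other members, and are shown as the matched letters in capitals with at most 10 bases on each side (GRCr8, RefSeq, written along each gene's strand). Together with Ifitm3, 5 of the 8 members held the ISRE core, against 3.77% of all windows, and 3 of 8 held GAS, against 8.68%. Psmb9 held neither. Tap2, Psmb8, Tap1 and Psmb9 lie in a row on chromosome 20, inside the rat MHC, and the windows of Tap1 and Psmb9 share 44 bases.
B2m ISRE core, plus strand, chr3:129549170-129549199: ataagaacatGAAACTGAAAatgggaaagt
Tap2 ISRE core, minus strand, chr20:4652318-4652347: gcagcgaagtGAAAGCGAAAgcccgggacc
Psmb8 ISRE core, minus strand, chr20:4657016-4657045, motif on the opposite strand: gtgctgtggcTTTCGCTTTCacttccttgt
Tap1 ISRE core, minus strand, chr20:4668645-4668674, motif on the opposite strand: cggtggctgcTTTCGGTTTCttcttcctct
Irf1 GAS, plus strand, chr10:38417783-38417811: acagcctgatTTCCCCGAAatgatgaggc
Psmb8 GAS, minus strand, chr20:4657258-4657281: agctgTTCCCAGAAgatgcccctc
The members with a match therefore include Ifitm3, which passed the test, B2m and Irf1, which did not, and 3 genes at background.

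Over the 6 tested member probe sets, all were higher than saline after transection on the lesion side, the contralateral side and both sides, with median log2 differences of 0.25, 0.28 and 0.30. After lysolecithin 5, 5 and 6 were higher, with medians of 0.23, 0.48 and 0.27. Over all probe sets tested the medians on both sides were close to 0, at 0.0016 after transection and 0.0040 after lysolecithin, and 50.2% and 50.6% were higher. On the lesion side 50.6% of all probe sets were higher after transection and 53.1% after lysolecithin. On the contralateral side these shares were 47.9% and 46.6%. The 2 injuries share the saline arrays, so these counts are not independent of each other. Probe sets with every array above every saline array numbered 2 of 6 on the lesion side after transection, against a background of 7.93%, and 2 of 6 after lysolecithin, against 11.4%. Contralaterally they numbered 3 of 6 after transection, against 14.5%, and 4 of 6 after lysolecithin, against 15.8%. With both sides together they numbered 1 of 6 for each injury, Psme1 D45249_g_at after transection, against 1.77%, and Ifitm3 after lysolecithin, against 1.97%. Psme1 gives 2 of the 6 probe sets, so these are not 6 separate genes. The members were chosen with earlier results of these data known, so these counts are a description and not a test.

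**Figure D4:**
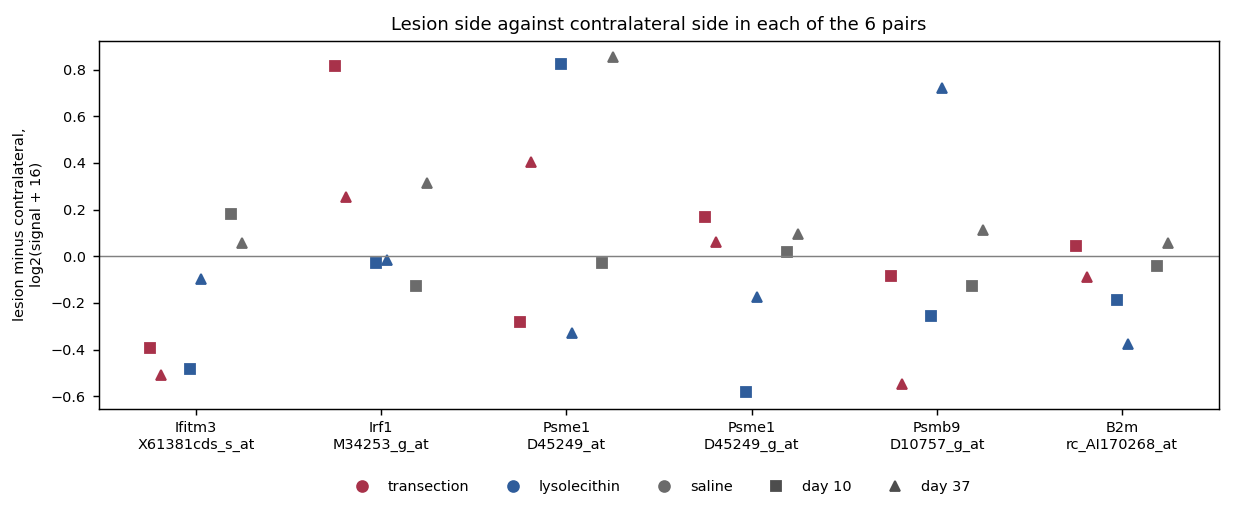
Lesion minus contralateral log2(signal + 16) in each of the 6 pairs of the same intervention and day, red for transection, blue for lysolecithin and grey for saline, squares for day 10 and triangles for day 37. Ifitm3 lies below 0 in the 4 injury pairs and above 0 in the 2 saline pairs, and none of the 6 probe sets passed the test of the pairs.

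The study used the contralateral nuclei as controls. Across the 6 pairs of lesion and contralateral arrays, 2 of the 6 probe sets were higher on the lesion side, with a median log2 difference of -0.05, and 0 of 4413 probe sets passed in limma (0%), with 219 at an unadjusted p under 0.05. The largest member differences were 0.24 (SE 0.15) for Psme1 D45249_at and -0.21 (SE 0.11) for Ifitm3, both with limma adjusted p = 0.945. The labels do not say that both sides of a pair came from the same animals. For Ifitm3 the contralateral arrays of both injuries stood above saline without overlap, though neither contralateral test passed. Such a separation held for 14.5% (transection) and 15.8% (lysolecithin) of the 4413 probe sets tested. A contrast of the sides within an injury is a different measure from the difference from saline.

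Between days on the lesion side no member passed. Psme1 D45249_at was 0.60 higher (log2; SE 0.19; limma adjusted p = 0.187) on day 37 than on day 4, and B2m was lower by 0.28 (-0.28, SE 0.10; limma adjusted p = 0.218), where 1 probe set, 0.0227%, passed. On day 10 against day 4, Psmb9 differed by -0.45 (SE 0.18; limma adjusted p = 0.334) and B2m by -0.21 (SE 0.10; limma adjusted p = 0.404), where 2 probe sets, 0.0453%, passed. Every B2m array of day 10 was below every one of day 4. The share of all probe sets separated in this way was not counted. Day 37 against day 10 gave member differences of -0.07 to 0.18, and 0 probe sets passed in limma (0%), with 346 at an unadjusted p under 0.05.

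Genes of the neighbouring pathways were read in the same fits, with the brightest probe set of each. Of 31 other class I pathway genes listed, 15 were on the array and 11 were tested. On both sides 7 of the 11 were higher than saline after transection and 8 after lysolecithin, with a median log2 difference of 0.10 for each, and 0 passed in limma, with 1 and 2 at an unadjusted p under 0.05. Over all probe sets tested, 14.5% had an unadjusted p under 0.05 in the transection comparison and 13.5% in the lysolecithin one, and the counts of this list and of those below are to be read against these shares. RT1-CE16, a class I heavy chain whose probes match a gene family, had the largest differences of the list, 0.51 (SE 0.14; limma adjusted p = 0.118) after transection and 0.46 (SE 0.14; limma adjusted p = 0.187) after lysolecithin. Its lesion-side signal was 3617.8 to 5755.4 after transection and 3900.3 to 4999.9 after lysolecithin, against 2796.4 to 3506.5 after saline. Every injury array was thus above every saline array on that side. This held for 7.93% (transection) and 11.4% (lysolecithin) of all probe sets tested. The class I chains RT1-A3 and RT1-N3, Hfe and Mr1 were never called Present. Of 20 genes of the constitutive proteasome, the housekeeping protease, 7 were higher than saline after transection and 2 after lysolecithin, with medians of -0.10 and -0.15, and 0 passed in limma, with 2 and 4 at an unadjusted p under 0.05. The proteasome list thus lay on the other side of 0 from Psme1, though no gene of it passed.

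Of 53 interferon signalling and target genes, 22 were on the array and 12 were tested, of which 10 were higher than saline on both sides after each injury. The medians were 0.14 after transection and 0.23 after lysolecithin, and 0 passed in limma, with 4 and 3 at an unadjusted p under 0.05. Ifngr1, a chain of the interferon-gamma receptor, differed by 0.60 (SE 0.23; limma adjusted p = 0.253) after transection and 0.55 (SE 0.23; limma adjusted p = 0.324) after lysolecithin. Irf8, a transcription factor of microglia and other myeloid cells, differed by 0.51 (SE 0.23; limma adjusted p = 0.329) after transection and 0.66 (SE 0.23; limma adjusted p = 0.255) after lysolecithin. All transection arrays of Ifngr1 and of Irf8 lay above all saline arrays, as did those of 1.77% of the 4413 probe sets tested. Both genes were named for the size of their differences. Interferon-gamma itself (Ifng), Irf7, Mx2, Cxcl10, Icam1, Nos2, Socs3 and Lgals3bp were never called Present, so the level of the cytokine could not be read.

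MHC class II, which shows peptides taken up from outside the cell, was read as a comparison. All 7 class II genes tested were higher after both injuries on both sides, with median log2 differences of 0.41 after transection and 0.56 after lysolecithin. After lysolecithin 2 of the 7 rose in limma. Cd74, the invariant chain, rose by 1.78 (SE 0.35; limma adjusted p = 0.0242) and RT1-Da, a class II alpha chain, by 1.58 (SE 0.29; limma adjusted p = 0.0131). Contralateral Cd74 read 1262.4 to 2909.2 after lysolecithin, against 179.7 to 372.2 after saline, and on the lesion side 501.6 to 690.4 after lysolecithin, against 237.3 to 291.9 after saline. After transection Cd74 differed by 1.03 (SE 0.35; limma adjusted p = 0.205). The difference between class II and class I lists was not tested.

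**Figure D5:**
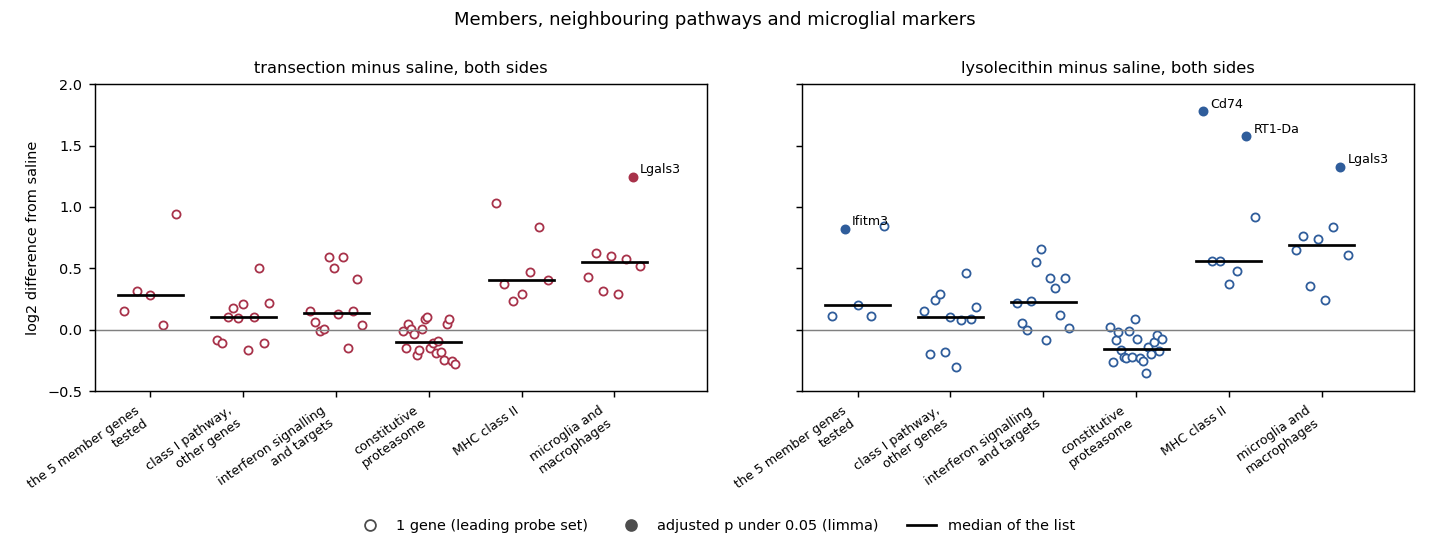
Fitted log2 differences from saline on both sides (vertical axis) for the 5 tested member genes and for genes of neighbouring lists, 1 circle a gene, transection on the left and lysolecithin on the right. Filled circles passed the threshold in limma and are named, and black lines are list medians, 0.14 and 0.23 for interferon genes and 0.55 and 0.69 for microglial markers.

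Markers of microglia and macrophages, the main cells to carry class II protein in injured brain, lay on the same side of saline as Ifitm3. All 8 tested markers of 13 on the array were higher than saline on both sides after either injury, with medians of 0.55 after transection and 0.69 after lysolecithin. Lgals3 rose after both, by 1.24 (SE 0.21; limma adjusted p = 0.0239) after transection and 1.33 (SE 0.21; limma adjusted p = 0.00425) after lysolecithin. The summed signal of the 13 markers on the lesion side was 17089.1 to 18577.4 after transection and 16182.6 to 20652.3 after lysolecithin, against 13510.1 to 16239.6 after saline. On the contralateral side it was 19647.3 to 19718.9 after transection and 18774.5 to 22965.9 after lysolecithin, against 13031.8 to 13125.0 after saline, with 12841.0 on the healthy array. Both injuries were thus above saline on the contralateral side, where Ifitm3 was also above saline after both. On the lesion side the marker sum after transection was above saline too, while Ifitm3 overlapped saline, at 1.01-fold to 1.23-fold. After lysolecithin the lesion-side marker sum overlapped saline, while Ifitm3 did not. Csf1r, Cx3cr1, Itgam, Ptprc and C1qc were never called Present. The part of these cells in the Ifitm3 result was not tested.

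Of 7 lymphocyte markers on the array, at most 1 was called Present on any array, and Cd4, Cd5 and Cd79b on none. The 1 marker tested, Cd8b, was Present on 4 arrays and differed from saline on both sides by 0.17 (SE 0.24; limma adjusted p = 0.784) after transection and 0.14 (SE 0.24; limma adjusted p = 0.823) after lysolecithin. The summed signal of the 7 on the lesion side was 1230.6 to 1823.4 after transection and 1352.1 to 1723.5 after lysolecithin, against 1135.5 to 1247.7 after saline. On the contralateral side it was 1600.3 to 1882.4 after transection and 1435.3 to 1899.2 after lysolecithin, against 1499.5 to 1541.1 after saline, and the healthy array was highest, at 1957.6.

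All 5 neuronal markers on the array were called Present on all 16 arrays, and the label of the tissue was read against them. On the lesion side their summed signal was 29104.9 to 37354.9 after transection and 37025.7 to 38918.7 after lysolecithin, against 38326.9 to 44522.0 after saline. On the contralateral side it was 39468.1 to 41081.0 after transection and 35698.1 to 40363.0 after lysolecithin, against 41828.4 to 45242.7 after saline, with 42208.4 on the healthy array. The injuries thus lay below saline on both sides, apart from an overlap of lysolecithin with saline on the lesion side. On both sides 2 of the 5 were higher than saline after transection (median log2 difference -0.26) and 1 of 5 after lysolecithin (median -0.17), and 0 passed in limma, with 3 and 0 at an unadjusted p under 0.05.

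Of 9 astrocyte markers, 8 were higher than saline on both sides after transection (median 0.05) and 5 after lysolecithin (median 0.03). Gja1 rose by 1.15 (limma adjusted p = 0.0491) after transection, and Vim by 1.16 (limma adjusted p = 0.0193) and Slc1a2 by 0.76 (limma adjusted p = 0.0096) after lysolecithin. Of 9 tested meningeal and connective tissue markers, 2 were higher after transection (median -0.07) and 7 after lysolecithin (median 0.22), and the collagen gene Col1a2 rose by 0.78 (limma adjusted p = 0.0419) after lysolecithin. The summed signal of the 10 on the array was 9463.3 to 11448.7 after transection and 12836.2 to 17082.6 after lysolecithin on the lesion side, against 11549.3 to 12550.3 after saline. Contralaterally it was 9500.4 to 12448.2 after transection and 13799.2 to 14061.5 after lysolecithin, against 13359.6 to 13548.1 after saline. Lysolecithin was thus above saline and transection below it on both sides. The part of any of these cells in the member results was not tested.

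The members did not follow each other closely over the 16 arrays, which share a scaling and, in part, their conditions. The highest Pearson correlations of the log2 signals were 0.593 between Ifitm3 and Psme1 D45249_g_at and 0.591 between B2m and the same probe set, and the lowest was -0.546 between Psmb9 and Psme1 D45249_at. Over the 15 arrays without the healthy one, an alternative added after seeing the data, these were 0.589, 0.651 and -0.406. The genes most like the mean of the 5 leading member probe sets, among 3216 candidates, were Lgals3 (r = 0.899), the small heat shock protein Hspb1 (0.874), the microglial marker Aif1 (0.863), the calcium-binding protein S100a4 (0.862), complement C3 (0.854) and the glial lipid carrier Fabp7 (0.841). Those most like Ifitm3 were the chemokine Cxcl14 (0.882), the membrane glycoprotein Pdpn (0.844) and S100a4 (0.840). Pdpn rose with lysolecithin on both sides by 0.87 (SE 0.13; limma adjusted p = 0.00425) and with transection by 0.68 (SE 0.13; limma adjusted p = 0.0415), and Cxcl14 rose by 0.67 (SE 0.14; limma adjusted p = 0.0304) after lysolecithin. Those most like Psme1 D45249_at were Alcam (0.861), Pnoc (0.860) and Pea15 (0.839). For B2m they were Zfp326 (0.886), Rpl39 (0.871) and Lamp2 (0.867), for Psmb9 Serpinh1 (0.887), Psma1 (0.863) and Pygm (0.828), and for Irf1 Glul (0.752), the interferon-inducible GTPase Irgm2 (0.732) and Twf1 (0.707). Without the healthy array the correlations of these named genes were 0.699 to 0.917. They are given as a description.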

How the data were processed

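Total RNA from 16 samples had been extracted with Trizol and hybridised as biotin-labelled cRNA, per the labels' protocols. MAS5 is named, without a version, per the submitters' processing notes. Per the file headers each deposited file gives the signal intensity of each probe set with its detection call and p-value, and the scaling by the authors was kept. A deposited value table of the whole series covers 7773 probe sets on a scale like log2, made in a way that is not given in the sources used here. Its columns have medians of 8.36 to 8.40, and it served as an alternative. Each column tracked its own array (r = 0.814 to 0.968, no more than 0.495 with another array). These r are not the same measure as the correlations between arrays given earlier.

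Signals were analysed as log2(signal + 16), in R 4.3.3 with limma 3.58.1 (eBayes with an intensity trend). Folds, and ratios between 2 arrays, are of signal + 16, which understates changes of low signals. Only the range from lowest to highest array of a probe set is a ratio of linear signals. Tests covered the 4413 probe sets, of 8740 without 59 control probe sets, that were called Present on at least 3 of 16 arrays, with Benjamini-Hochberg adjustment over all of them. Symbols came from the platform annotation (6283 probe sets with 1 symbol, 280 with several, 2177 with none). A probe set naming B2m among several genes was not used. Lesion-side and contralateral fits had intervention and day as terms (4 and 2 residual degrees of freedom), the side fits had the pair as a block (5, or 3 for the differences between interventions), and the fit over both sides (15 arrays, 9 degrees of freedom) had intervention, day and side, with the pair as a random block (estimated correlation 0.0871). Simulated data were used to test the fits. Promoters came from RefSeq (GRCr8), which held all 8 members. Python 3.11.15, numpy 2.4.6, pandas 2.3.3 and matplotlib 3.10.9 were used for the rest.

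The members and lists were chosen with earlier results of these data known. All member probe sets are described, led in each gene by the one with the highest mean log2 signal. Of a list, genes past the threshold were eligible to be named, and otherwise at most 3 a comparison with the largest differences in 1 direction throughout. Genes named for likeness were Present on at least 8 arrays, the 6 most like the members' mean and the 3 most like each member. Psme2 and the genes never called Present were named outside this rule, after their values were seen. Alternatives were another pseudocount (64), no detection filter, no intensity trend, quantile normalization, the series value table, other model terms and leaving out each array.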

Additional observations from a re-analysis of the deposited data

Results flagged for a closer look

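Both lesion-side arrays lay above their contralateral partners after transection, and both lay below them after lysolecithin, for 2 of the 6 tested member probe sets. How many of all probe sets show this pattern was not counted. For Psme1 D45249_g_at the lesion over contralateral ratio was 1.04 to 1.12 in the transection pairs and 0.668 to 0.886 in the lysolecithin pairs, and the mean lesion minus contralateral log2 signal was 0.49 higher after transection than after lysolecithin. For Irf1 M34253_g_at the ratio was 1.19 to 1.76 in the transection pairs and 0.979 to 0.988 in the lysolecithin pairs, a difference of 0.56 on the log2 scale. The Irf1 ratios after lysolecithin were close to 1, so that part of its pattern was almost no difference. The difference between the injuries was not tested in either case. The other Psme1 probe set gave 1 pair each way after both injuries.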

How the results depend on the processing

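Over the 78 member results (6 probe sets in 13 comparisons), 452 of 468 alternative fits kept the direction and the side of the threshold, 15 reversed and 1 passed where the reported one did not (Psme1 D45249_at after transection on both sides in the series value table, 1.06). Of 684 refits with an array or pair left out, 640 kept both, 38 reversed and 6 newly passed. Some of the refits that newly passed were contralateral and left a group with 1 array, so they add no support. No call was lost. Ifitm3 after lysolecithin on both sides passed in all of them, at 0.75 to 0.82 (limma adjusted p = 0.00241 to 0.0211) under the alternatives and 0.75 to 0.88 (limma adjusted p = 0.00252 to 0.0242) with an array left out. Of the 26 results that reversed at least once, the largest was 0.35 in size, and the cause was not tested.

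Without an array or pair, reversed results ranged as follows. For B2m, -0.089 to 0.026 (lysolecithin, lesion side), -0.097 to 0.039 (side difference, transection) and -0.013 to 0.412 (transection, contralateral). For Ifitm3, -0.104 to 0.079 (day 37 against 10) and -0.0073 to 0.200 (transection, lesion side). For Irf1, -0.097 to 0.326, -0.080 to 0.215 and -0.040 to 0.383 (days 10 against 4, 37 against 10 and 37 against 4), -0.230 to 0.518 and -0.016 to 0.381 (lysolecithin, contralateral and lesion), -0.340 to 0.102 (side difference, lysolecithin) and -0.421 to 0.552 (transection, contralateral). For Psmb9, -0.181 to 0.074 (pairs), -0.595 to 0.424 (lysolecithin, contralateral), -0.251 to 0.729 (side difference, lysolecithin), and -0.084 to 0.111, -0.459 to 0.605 and -0.198 to 0.104 (transection, both sides, contralateral and lesion). For Psme1 D45249_at, -0.121 to 0.454 (day 37 against 10), -0.742 to 0.414 and -0.791 to 0.091 (side difference, lysolecithin and transection) and -0.309 to 0.153 (transection against lysolecithin). For Psme1 D45249_g_at, -0.078 to 0.074 (day 37 against 10) and -0.116 to 0.034 (pairs).

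Quantile normalization reversed B2m after lysolecithin on the lesion side (0.038), Irf1 on day 10 against 4 (-0.013), the Psme1 D45249_g_at side difference after transection (-0.0050) and Psmb9 after transection (-0.055 both sides, -0.015 contralateral, -0.092 lesion). The series value table reversed Irf1 on day 10 against 4 (-0.063) and after transection, contralateral (-0.113), Psmb9 after lysolecithin on both sides (-0.047) and after transection (-0.109 both sides, -0.010 contralateral, -0.175 lesion), Psme1 D45249_at for transection against lysolecithin (0.057) and Psme1 D45249_g_at on day 37 against 10 (-0.077). Days 10 and 37 alone, an alternative chosen after seeing the data, reversed Psmb9 after transection on both sides (-0.082).

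Counts of probe sets past the threshold moved more than the member values. With no detection filter they were 0 (transection, lesion side), 1 (lysolecithin, lesion side), 0 (transection against lysolecithin), 6 (transection, both sides), 0 (lysolecithin, contralateral) and 0 for day 10 and for day 37 against 4. With no trend they were 0, 1, 0, 1 and 0 in the same 5 comparisons, 18 for lysolecithin on both sides, and 1 and 0 for days 10 and 37 against 4. With no day term the 3 lesion-side contrasts of interventions had 0, and with no intervention term both day contrasts had 0. Quantile normalization gave 19 (transection, lesion), 4 (lysolecithin, lesion), 0 (lysolecithin, contralateral), 1 (day 10 against 4) and 2 (day 37 against 4), and the series value table gave 6 (transection against lysolecithin), 2 and 4 (transection and lysolecithin, contralateral), 1 and 5 (days 10 and 37 against 4). Days 10 and 37 alone gave 10 (transection) and 18 (lysolecithin) on both sides, and no replicate block for the pair gave 34 for transection. With an array left out the counts ran from 0 to 56 (transection, lesion), 1 to 95 (lysolecithin, lesion), 0 to 31 (transection against lysolecithin), 0 to 86 and 18 to 92 (transection and lysolecithin, both sides), 1 to 54 and 0 to 66 (contralateral), 0 to 1 and 0 to 0 (side differences), 0 to 0 (pairs), 0 to 5, 0 to 17 and 0 to 21 (days 10 against 4, 37 against 10 and 37 against 4). With 1 array per condition, differences as small as those of B2m or Irf1 could not be told from the spread. Leaving an array out can leave a group with 1 array, which is then assumed to vary like the others.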
